A study of Mus musculus with 3 samples.

Results

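Poly(A)- and cap-binding translation regulators are described here in mouse embryoid bodies. These are balls of embryonic stem cells kept in suspension, which differentiate when the cytokine LIF is withheld. The group holds 10 genes, Paip1, Paip2, Pabpc1, Pabpc4, Gigyf1, Gigyf2, Eif4e, Eif4e2, Eif4g1 and Eif4ebp1, of 20390 genes that could be tested. They were chosen by gene name with their ratios in these data already known, so their values are given as a description with no test. The arrays carried 17 probes for them, of 39429 in all, and each probe is given separately because probes of Paip1 and of Gigyf1 disagreed. All 17 passed the filter on dim probes, as did 26318 probes in all.

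The mutant+CT embryoid bodies had the genotype Dido3deltaCT+HADido3CT: their Dido3 protein was truncated at the C-terminus and the missing terminal region, encoded by exon 16, was overexpressed in the same cells. They were set against wild-type control embryoid bodies. The 2 kinds were cultured side by side and collected at day 10, having had no LIF. Each of 3 two-colour arrays carried 1 mutant+CT and 1 wild-type RNA from separate biological replicates, and the dyes were exchanged on replicate 2. The promoter of the overexpressed region, the parent stem cell line and the number of clones are not given in the sources used here, and no sample with the truncation alone is analysed here, so the truncation and the overexpression cannot be told apart.

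A messenger RNA is translated efficiently when the cap at its start and the poly(A) tail at its end are bound at the same time. The cap-binding protein eIF4E and the scaffold eIF4G assemble at the cap, cytoplasmic poly(A)-binding proteins cover the tail, and eIF4G joins both ends. PAIP1 favours and PAIP2 opposes the action of the poly(A)-binding protein, 4E-BP1 (Eif4ebp1) blocks eIF4E from eIF4G, and the eIF4E-like protein 4EHP (Eif4e2) with its GIGYF partners occupies the cap without starting translation.

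The results turn on the paired probes of Paip1 and of Gigyf1, whose sequences are shown because 2 probes of the same annotated transcript read differently. All are written 5′ to 3′ on the transcript strand as deposited, and positions are in the mm9 build, on the plus strand. The first Paip1 probe lay at chr13:120239562-120240599. Its 60 bases were spread over 1038 genome bases, so that 978 genome bases are skipped and the probe crosses at least 1 splice junction. It starts at base 1127 of Paip1 transcript variant 1.
Paip1 probe A_51_P470989: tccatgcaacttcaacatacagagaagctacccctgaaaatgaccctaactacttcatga
The other Paip1 probe lay at chr13:120249068-120249127, unspliced, and starts at base 4608 of the same transcript, 3481 bases further on. Its bases 31 to 60 are shown, with the hexamer AATAAA, the DNA form of the most common polyadenylation signal, in capitals.
Paip1 probe A_55_P2013218: tatcaAATAAAaaattaaatctgtttttct
Searched on the deposited strand only, this hexamer was present in 2 of the 17 member probes, this one and the Eif4e probe A_55_P1965584, and in 12.6% of all 60-base probes. The match is a description of the letters and shows no site in use.

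The first Gigyf1 probe lay at chr5:137967174-137967233 and starts at base 3448 of its transcript. The other lay at chr5:137968348-137968407 and starts at base 4622. The distance was 1174 bases both in the transcript and in the genome, so no intron separates them. Bases 1 to 30 of each are shown.
Gigyf1 probe A_55_P2012047: gagacagaaatatcatccaaaagctagacg
Gigyf1 probe A_52_P676798: cgagcgagcctgccactgcctcctccatga
Which of these probes lie in coding sequence and which in an untranslated region was not analysed here.

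Levels below are background-corrected, loess-normalized spot intensities in arbitrary units, and ratios are log2 of mutant+CT over wild type, 1 per array, with mean ± SD over n = 3 arrays. Intensities of different probes are not compared, since probes differ in how strongly they bind. Intensities were normalized within arrays but not between them. Whether groups overlap therefore also depends on how bright each array was, and overlapping groups can still differ within every array. The 3 arrays did not repeat each other closely. Across kept probes their ratios had Pearson correlations of 0.21 (replicates 1 and 2), 0.56 (replicates 1 and 3) and 0.37 (replicates 2 and 3), given as a description across probes on arrays of 1 design. Probes marked well above background made up 69.0% to 78.5% of spots in mutant+CT and 68.1% to 76.4% in wild type, and 0 were saturated. The 4 probes of Dido1, the gene of Dido3, averaged 3.53 ± 0.12, 1.79 ± 0.33, 0.77 ± 0.80 and -2.39 ± 1.29. The probe averaging 0.77 had ratios of either sign (-0.01, 1.58 and 0.74). The place of the Dido1 probes relative to exon 16 was not analysed here.

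Markers of 5 cell types were summed in each group. The sums did not overlap for naive pluripotency and for primitive and parietal endoderm, and overlapped for the other 3. Within arrays, the mutant+CT sum was the higher one on every array for naive pluripotency and for visceral endoderm. It was the lower one on every array for neural progenitors and for primitive and parietal endoderm. The cardiomyocyte sum was higher on replicate 1 only. Across 14 naive pluripotency markers the summed intensity was 104100 to 284500 in mutant+CT and 51940 to 63770 in wild type. Across 12 measured neural progenitor markers it was 14780 to 32560 in mutant+CT and 19560 to 86240 in wild type. Bright markers weigh most in such a sum. Gene by gene, the median ratio of the neural progenitor markers was -2.37. At least 2-fold lower on every array were 58.3% of them, against 0.991% of all genes, and 0 were that much higher. By the same measure 30.8% of primitive and parietal endoderm markers were lower (median -1.48). At least 2-fold higher were 35.7% of naive pluripotency markers (median 1.62) and 20% of visceral endoderm markers (median 1.11), against 1.9% of all genes. In each of these lists 0 were that much apart the other way. Some means ran against their list, such as Klf4 at -0.68 ± 1.01 and Sox2 at 0.16 ± 0.62. Across 13 primitive and parietal endoderm markers the summed intensity was 102200 to 316600 in mutant+CT and 342900 to 613100 in wild type. Across 10 visceral endoderm markers it was 191900 to 464400 in mutant+CT and 78410 to 215000 in wild type. Cardiomyocyte markers (11) summed to 7885 to 81970 in mutant+CT and 8524 to 12680 in wild type, with a median ratio of 3.78 on replicate 1 against -0.87 on replicate 2 and -0.73 on replicate 3. Every measured marker was above background on at least 1 array of each group, so none was at 0. Their smallest adjusted p-values in limma were 0.084 (Dppa2, 1.65), 0.074 (Rax, -2.50), 0.096 (Col4a1, -2.68), 0.087 (Apoa1, 2.12) and 0.36 (Myh6, 1.74), so none passed. The part of these cell types in the values below was not tested, and in whole embryoid bodies fewer cells of a type and less RNA per cell cannot be told apart.

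Of the poly(A)-binding proteins, Pabpc1, the main cytoplasmic form, had intensities of 57215.1, 87149.5 and 97586 in mutant+CT and 56125, 41803 and 80323 in wild type. The groups overlapped, and the replicates disagreed. Its ratios were 0.03, 1.06 and 0.28, a mean of 0.46 ± 0.54, and the mean was 0.15 without replicate 2. The Pabpc1 probe A_66_P115406 (chr15:36526752-36526811, minus strand) shares at least 18 bases with an unnamed probe, A_55_P2117487. That probe also had its highest ratio on replicate 2 (0.12, 0.85 and 0.46).

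Pabpc4, a related cytoplasmic poly(A)-binding protein, was measured by a probe of transcript variant 2 (A_55_P1953093, chr4:122975265-122975324, plus strand). It had intensities of 4585, 4214 and 4045 in mutant+CT and 3319, 3229 and 2416 in wild type. The lowest mutant+CT value was above the highest wild-type one. The ratios of 0.47, 0.38 and 0.74 averaged 0.53 ± 0.19, a mean difference of 1.45-fold, and were positive in 3 of 3 arrays.

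Paip1, the activator that binds the poly(A)-binding protein, had the largest ratio in size of the group at its splice-spanning probe. Intensities at A_51_P470989 were 396, 598 and 552 in mutant+CT, against 6361, 7683 and 9473 in wild type. The groups were far apart on every array, with mutant+CT low whether its RNA carried Cy3 (replicates 1 and 3) or Cy5 (replicate 2). The ratios were -4.01, -3.68 and -4.10, a mean of -3.93 ± 0.22, or 15.2-fold lower in mutant+CT. Of the 26318 kept probes, this one ranked 12 from the lowest mean ratio.

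At the distal Paip1 probe A_55_P2013218 the groups overlapped. Intensities were 163, 148 and 176 in mutant+CT and 218, 171 and 201 in wild type. The ratios of -0.41, -0.21 and -0.19 averaged -0.27 ± 0.12, which kept the same sign as the first probe but was far smaller in size. This probe was well above background on all arrays in both groups, and 25.8% of kept probes were dimmer, and its mean ratio was -0.56 on Agilent's processed signals.

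**Figure D1:**
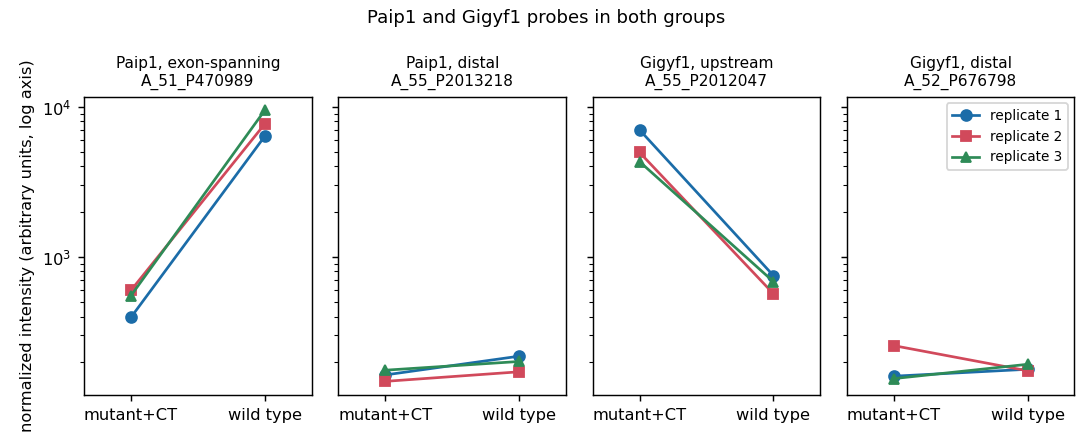
Normalized intensity (arbitrary units, log axis) of the 4 Paip1 and Gigyf1 probes in mutant+CT (left) and wild type (right), with a line joining the RNAs of each of 3 arrays. The splice-spanning Paip1 probe lies at 396 to 598 in mutant+CT and 6361 to 9473 in wild type, the upstream Gigyf1 probe at 4302 to 7002 in mutant+CT and 568 to 750 in wild type, and the groups overlap at both distal probes.

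Paip2, the inhibitor that displaces the poly(A)-binding protein from the tail, was measured by 2 probes 642 bases apart (chr18:35775940-35775999 and chr18:35776582-35776641, plus strand). At A_55_P2167050 intensities were 5302, 22780 and 17307 in mutant+CT and 10780, 23138 and 29003 in wild type. At A_51_P514647 they were 16918, 29789 and 27516 in mutant+CT and 24821, 35710 and 42116 in wild type. The groups overlapped at both probes, while mutant+CT was the lower one within each array. The ratios were -1.02, -0.02 and -0.74 at the first probe and -0.55, -0.26 and -0.61 at the second. The means of -0.60 ± 0.52 and -0.48 ± 0.19 lay 0.12 ± 0.36 apart, and at both probes replicate 2 was nearest to 0.

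Of the cap-binding genes, Eif4e, whose protein holds the cap, had 3 probes with means near 0 for their spread. The probe A_52_P310981 (chr3:138219236-138219295) had ratios of 0.17, -0.52 and 0.07, a mean of -0.10 ± 0.37. The probe A_55_P1974533, 1191 bases further on (chr3:138220427-138220486), had ratios of -0.07, 0.14 and 0.75, a mean of 0.27 ± 0.43. A probe from a testis cDNA annotated as Eif4e, A_55_P1965584 (chr3:138189716-138189775), averaged 0.06 ± 0.26 and was above background on 2 of 3 arrays in mutant+CT and 3 of 3 in wild type. None of the 3 probes kept 1 sign on all arrays.

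Eif4g1, the scaffold that joins cap and tail (A_55_P2046378, chr16:20692815-20692874), had intensities of 19827, 29836 and 21860 in mutant+CT and 15843, 20093 and 24720 in wild type. The groups overlapped and the ratios of 0.32, 0.57 and -0.18 differed in sign, with a mean of 0.24 ± 0.38. Eif4ebp1, the inhibitor of eIF4E (A_51_P330428, chr8:28385887-28385946), had intensities of 22344, 34139 and 50228 in mutant+CT and 19547, 24308 and 25174 in wild type. Its groups also overlapped, although mutant+CT was the higher one on each array. The ratios were 0.19, 0.49 and 1.00, a mean of 0.56 ± 0.41.

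In the repressor complex at the cap, Gigyf1, the adaptor that partners with 4EHP, stood apart at its upstream probe. Intensities at A_55_P2012047 were 7002, 4957 and 4302 in mutant+CT, against 750, 568 and 684 in wild type. The groups did not overlap in either dye orientation. The ratios were 3.22, 3.13 and 2.65, a mean of 3.001 ± 0.305, or 8.01-fold higher in mutant+CT. It ranked 58 from the highest mean ratio among 26318 kept probes.

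The distal Gigyf1 probe A_52_P676798 had intensities of 160, 256 and 154 in mutant+CT and 178, 174 and 192 in wild type. The groups overlapped and the sign was not shared: the ratios were -0.15, 0.56 and -0.32, a mean of 0.03 ± 0.46. It was above background on all arrays in both groups, and 26.5% of kept probes were dimmer. Gigyf2, the closest relative of Gigyf1 (A_55_P2039712, chr1:89347288-89347347), had intensities of 6981, 9896 and 8368 in mutant+CT and 5466, 8061 and 5773 in wild type. Its groups overlapped, with ratios of 0.35, 0.30 and 0.54 and a mean of 0.39 ± 0.13.

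Eif4e2, which encodes 4EHP, had 3 probes. Those of transcript variant 2, A_55_P2006554 (chr1:89122748-89122807) and A_55_P2006559 (chr1:89125366-89125425), averaged 0.03 ± 0.09 and -0.28 ± 0.43, and both had ratios of either sign. The probe of variant 3, A_55_P2006549 (chr1:89137004-89137063), had intensities of 109, 104 and 113 in mutant+CT and 91.9, 81.6 and 103 in wild type. These groups did not overlap, but the probe was above background on 3 arrays in mutant+CT and 2 of 3 in wild type. Its mean ratio was 0.25 ± 0.11 and was 0.69 on Agilent's processed signals.

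Across the 17 probes, 1 was at least 2-fold higher in mutant+CT on every array and 1 at least 2-fold lower, both named above; among all kept probes the shares were 2.04% and 0.984%. The other 15 probes had means of -0.60 to 0.56. The sign was positive on every array for 6 probes (20.4% of all kept probes) and negative for 4 (18.1%), and 7 were mixed. Mutant+CT and wild-type intensities did not overlap at 3 probes that were higher (9.11% of kept probes) and 1 that was lower (6.84%). The median of the 17 means was 0.06, against -0.01 over all kept probes. Since the genes were chosen on this contrast, nothing is read from these counts.

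**Figure D2:**
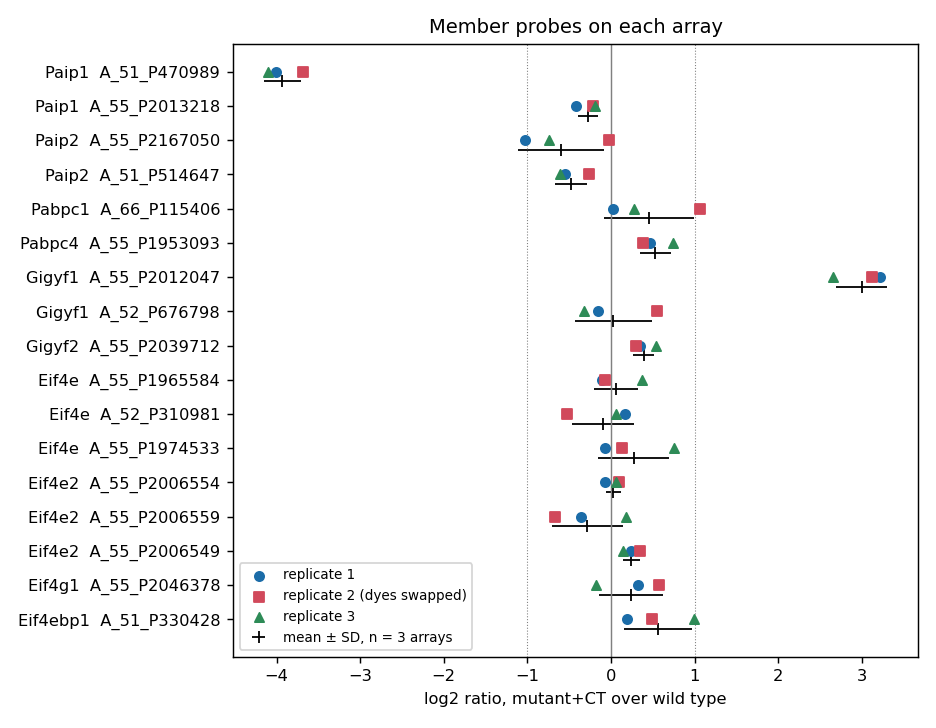
Log2 ratio of mutant+CT over wild type of each of the 17 probes on each of 3 arrays (points), with mean and SD below them (black); dotted lines mark a 2-fold difference. The splice-spanning Paip1 probe averages -3.93 and the upstream Gigyf1 probe 3.001, while the other 15 probes average between -0.60 and 0.56.

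The disagreement between probes was set against all 4815 genes with several kept probes, as the mean ratio of the highest probe minus that of the lowest. The gap was 3.66 ± 0.23 for Paip1 (3.59, 3.47 and 3.91 on the 3 arrays) and 2.97 ± 0.40 for Gigyf1 (3.38, 2.57 and 2.97). Over all such genes the median gap was 0.31 and the 95th percentile 1.504. A gap at least as large as that of Paip1 was found for 9 genes (0.187%), itself included, and as large as that of Gigyf1 for 26 (0.54%). That the probes of Paip1 and of Gigyf1 disagreed was known beforehand. Their shares therefore describe the size of the gaps and lend them no support. Paip2, Eif4e and Eif4e2 had gaps of 0.12, 0.37 and 0.53, which 75.9%, 43.7% and 31% of these genes reached. The distal probes of Paip1 and Gigyf1 were dim, where a ratio can be understated, so these gaps may be overstated. The cause of the Paip1 and Gigyf1 gaps was not tested.

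**Figure D3:**
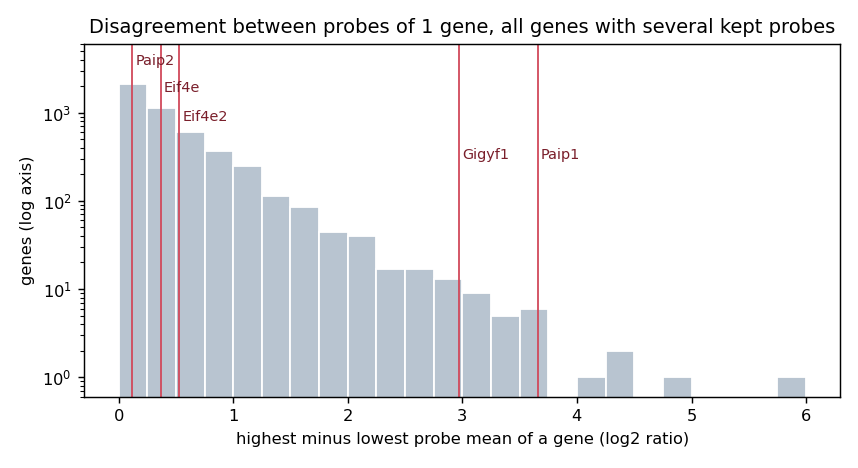
Number of genes (log axis) by the gap between their highest and lowest probe mean (log2 ratio), over 4815 genes with several kept probes; lines mark the 5 genes of the group that have several. Paip2, Eif4e and Eif4e2 (0.12 to 0.53) lie among most genes, Gigyf1 (2.97) and Paip1 (3.66) beyond the 95th percentile of 1.504. The disagreement at Gigyf1 and Paip1 was known beforehand.

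The genome around both genes did not show ratios of that size. Within 50000 bases of the Paip1 probes, 7 kept probes annotated to other genes or unnamed averaged -0.12 to 0.76, the highest at Tmem267. Within the same distance of the Gigyf1 probes, 3 kept probes averaged -0.41 to -0.13, among them Gnb2 at -0.40 ± 0.44, whose probe lay closest to Gigyf1.

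**Figure D4:**
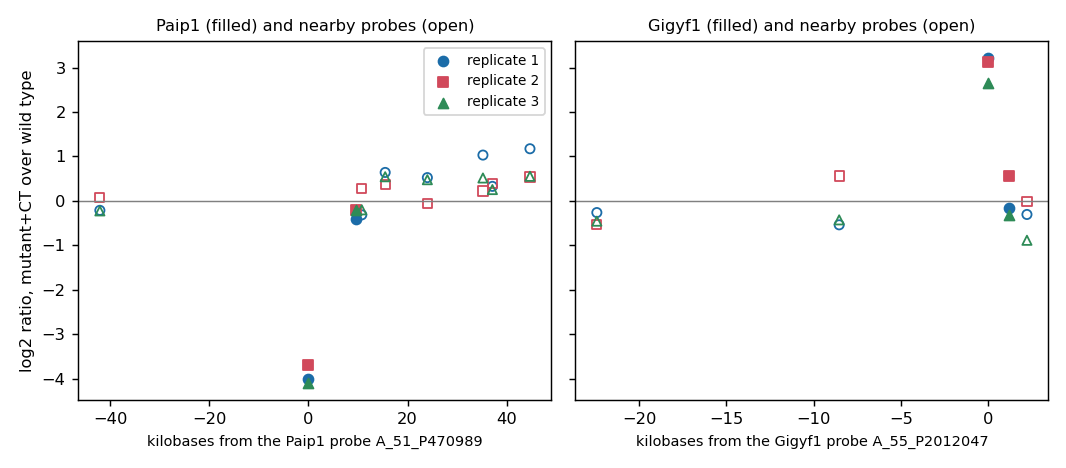
Log2 ratio of mutant+CT over wild type on each of 3 arrays against the distance in kilobases from the Paip1 probe A_51_P470989 (left) and the Gigyf1 probe A_55_P2012047 (right); filled points are probes of the named gene and open points other kept probes within 50000 bases. Other probes average -0.12 to 0.76 near Paip1 and -0.41 to -0.13 near Gigyf1.

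Patterns most like these were sought by Euclidean distance over the ratios of the 3 arrays, among kept probes of other genes. Nearest to the Paip1 probe were 2 probes of 1810037I17Rik (distances 0.73 and 0.82; ratios of -4.01, -3.44 and -3.41 at the nearer one) and Eef1akmt2, listed as Mettl10 in the files (0.99; -3.30, -3.98 and -3.47). Nearest to the Gigyf1 probe were Clcn3 (0.13; 3.18, 3.003 and 2.67), Zc3h13 (0.16; 3.14, 3.15 and 2.78) and Prl4a1 (0.39; 3.14, 2.76 and 2.56). With 3 arrays, such a distance describes size and replicate order only.

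Other genes of the same pathways were taken from 8 lists, 146 genes of which 135 could be tested, each by its brightest kept probe. In limma with Benjamini-Hochberg adjustment over 20390 genes, 0 of the 135 passed at adjusted p under 0.05, as did 0 genes in all (0%). On Agilent's processed signals 3 of them passed (Ago2, Deptor and Grb10) beside 325 genes in all, and with a trended and robust variance prior 2 passed (Ago2 and Deptor) beside 176. At an unadjusted p under 0.05, 14 of the 135 (10.4%) and 3211 of all genes (15.7%) passed. At least 2-fold higher in mutant+CT on every array were 4 of the 135 (2.96%), against 1.9% of all genes, and at least 2-fold lower were 0, against 0.991%. The median ratio of the 135 was 0.06, beside 0.00 over all genes.

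Among partners of GIGYF proteins and 4EHP (13 genes tested, median -0.02), 1 was at least 2-fold higher: Ago2, the small-RNA-guided silencing protein. Its probe A_51_P180001 had intensities of 4544, 6217 and 6182 in mutant+CT and 884, 886 and 1557 in wild type. The ratios of 2.36, 2.81 and 1.99 averaged 2.39 ± 0.41 (limma adjusted p = 0.0735, higher in 3 of 3 arrays). A second Ago2 probe of the same transcript, A_55_P2002133, starts at base 4321 against base 3163 and averaged -0.14 ± 0.33, with intensities of 189, 151 and 130 in mutant+CT and 217, 130 and 176 in wild type. As at Gigyf1, the probe nearer the transcript end had overlapping groups, and it was likewise dim. Whether position or dimness matters here was not tested.

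Among deadenylation and decapping genes (19 tested, median 0.00), Xrn1, the exonuclease that degrades decapped RNA, was at least 2-fold higher. It had intensities of 1593, 1831 and 1371 in mutant+CT and 447, 397 and 473 in wild type. Its ratio averaged 1.86 ± 0.33 (limma adjusted p = 0.0843, 3 of 3 arrays). The median over 10 tested cytoplasmic polyadenylation factors was 0.40.

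Among kinases and mTORC1 genes that act on the cap complex or eIF2 (19 tested, median 0.06), Deptor, an inhibitor of mTOR, was at least 2-fold higher. Its probe A_51_P445841 had intensities of 565, 1620 and 1718 in mutant+CT and 160, 188 and 223 in wild type. The ratio averaged 2.63 ± 0.70 (limma adjusted p = 0.0843, 3 of 3 arrays). Another Deptor probe, A_55_P2019362, designed on a different cDNA, averaged -0.03 ± 0.24. That probe was dim, with intensities of 116.5, 83.6 and 104 in mutant+CT and 120, 100 and 90.0 in wild type.

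In 4 further lists no gene was 2-fold apart on every array. The gene with the smallest p among 12 cap-complex genes (median -0.17) was Eif4ebp2, a second inhibitor of eIF4E, at 0.88 ± 0.15 (limma adjusted p = 0.167). Among 18 other poly(A)-binding proteins and interactors (median 0.26) it was Larp4b, an RNA-binding protein that interacts with PABPC1, at 0.86 ± 0.35 (limma adjusted p = 0.203). Among 32 other initiation factors, whose median was 0.00 and of which 0 had an unadjusted p under 0.05, it was Eif3a, the largest eIF3 subunit, at -0.51 ± 0.16 (limma adjusted p = 0.353). Among 12 elongation and termination genes (median 0.11) it was Eif5a2 at -0.86 ± 0.50 (limma adjusted p = 0.237).

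**Figure D5:**
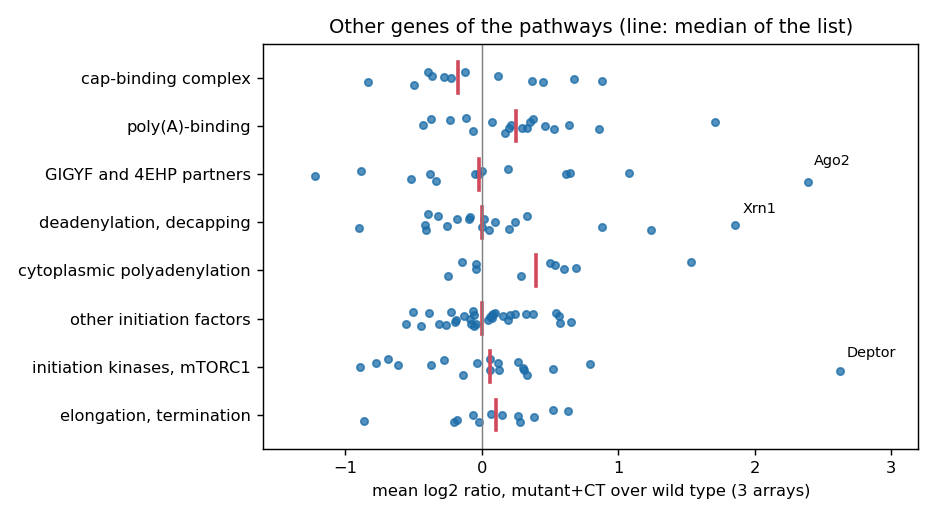
Mean log2 ratio of mutant+CT over wild type (n = 3 arrays) of the 135 tested genes in 8 pathway lists, 1 point a gene, with a line at each list's median. The medians lie between -0.17 and 0.40, and the labelled genes Ago2, Xrn1 and Deptor lie at 1.86 to 2.63.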

How the data were processed

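The deposited scanner files, whose headers name Agilent's extraction software, version 10.7.3.1, give for each spot the Cy3 and Cy5 intensity, the local background, Agilent's processed intensity and a log10 ratio (Cy5 over Cy3). That deposited log10 ratio served only to check direction. A deposited table gives normalized log2 ratios. The submitters' processing notes name limma for it, and the exact steps are not given in the sources used here. Its column medians were -0.02, 0.01 and -0.02, and it ran as mutant+CT over wild type.

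Spot intensities were processed in R (4.3.3) using the packages limma (3.58.1) and statmod (1.5.0): normexp background correction (offset 50), loess within each array with control spots at weight 0, and outlier-marked spots (454, 234 and 507) set to missing. Mutant+CT carried Cy3 on replicates 1 and 3 and Cy5 on replicate 2, and all ratios were turned to mutant+CT over wild type. A probe was kept if well above background on all 3 arrays in at least 1 group with no missing value. Probe positions are the files' mm9 coordinates; RefSeq names of GRCm38.p6 were matched by accession for 27234 of 39429 probes, and files' names were used otherwise. All genes were tested with limma's moderated test on their brightest kept probe. The limma step was also run on simulated independent normal values without a dye effect. That run does not show how the step performs on these arrays. The number of arrays limits the precision.

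Members and gene lists (8 pathway, 5 marker) were chosen with earlier results of these data known. Genes named are all members; per pathway list, genes with a ratio of 2-fold or more on every array (up to 4 per direction), otherwise the one with the smallest p; the smallest-p gene of each marker list; and the 3 probes nearest in pattern to the leading Paip1 and Gigyf1 probes. A gene that this rule takes is not reported here. Tmem267, Gnb2 and second probes of Ago2 and Deptor were named after their values were seen. The alternatives tried are given in the closing section.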

Additional observations from a re-analysis of the deposited data

How the results depend on the processing

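The same 2 member probes, of Paip1 and Gigyf1, reached the threshold on every array under all 11 alternatives run, 1.5-fold and 4-fold thresholds included. For these 2 probes several of those outcomes were fixed in advance. Other filters left their ratios unchanged, and a 1.5-fold threshold or fewer arrays asked less of them. Only other signals, background correction or normalization, and the 4-fold threshold, could have made them fail. Over 10 alternatives the leading Paip1 ratio ranged from -4.15 to -3.84 and the leading Gigyf1 ratio from 2.89 to 3.18. Those that change only the filter cannot alter the ratio or sign of any probe, and leaving out an array averages the same values again. The sign held for 13 of 17 member probes; it turned for the distal Gigyf1 probe (-0.23 without replicate 2), 2 Eif4e probes (A_55_P1965584, -0.24 on processed signals; A_52_P310981, 0.12 without replicate 2) and Eif4e2 A_55_P2006554 (-0.02 on processed signals). Genes passing limma numbered 0, but 325 on Agilent's processed signals, 12 with the filter in both groups, 176 with a trended and robust variance prior and 298 at adjusted p under 0.1; leaving out each array gave 0 to 0. Pathway genes passing numbered 3 on processed signals (Ago2, Deptor and Grb10), 2 with the trended prior (Ago2 and Deptor) and 3 at adjusted p under 0.1 (Ago2, Deptor and Xrn1), and 0 to 0 without each array. Kept probes with a 2-fold difference on every array numbered 795, but 1616 on processed signals, 1966 at 1.5-fold, 112 at 4-fold and 1052 to 2039 without 1 array (1618 without replicate 1, 2039 without replicate 2), where fewer arrays had to pass. The cause of the other shifts was not tested. The ratios tested are already paired within arrays, 1 mutant+CT with 1 wild-type RNA each. No paired analysis was possible beyond this because a further replicate block would leave no residual degrees of freedom. At dim probes, such as the distal Paip1 and Gigyf1 ones, small differences are hard to measure. The offset added in background correction can also make a ratio there smaller in size. On Agilent's processed signals the distal Paip1 mean was -0.56, against -0.27 in the main analysis. The distal Gigyf1 mean was -0.07 there, against 0.03. The leading probes averaged -4.15 (Paip1) and 3.07 (Gigyf1) on those signals. How far dimness adds to the gaps between probes was not tested.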

Other observations

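Ratios of further genes in the pathway lists with an unadjusted p under 0.05 in limma, chosen after their values were seen, ran in both directions. Ddx6, an RNA helicase of translational repression, averaged 1.08 ± 0.19, and Grb10, which binds GIGYF proteins, averaged -1.22 ± 0.30. The Ddx6 probe was dim, above background on 3 arrays in mutant+CT and 2 of 3 in wild type. Of the listed deadenylation and decapping genes, Cnot4 averaged 1.24 ± 0.74 and Cnot6 -0.90 ± 0.45, but probes disagreed. Cnot4 had another kept probe at -0.55, and the 3 kept probes of Cnot6 ranged from -0.90 to 1.31. Eif2ak2, the RNA-activated kinase of eIF2, averaged -0.89 ± 0.58, and Tent5c, a poly(A) polymerase, 0.69 ± 0.45. Eif4g3, a relative of Eif4g1, averaged -0.83 ± 0.69 at its brightest probe, while its 3 kept probes ranged from -0.83 to 0.32. None of these 7 genes passed at adjusted p under 0.05.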
